A study of Mus musculus with 7 samples.

Results

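Neurexins, neuroligins and contactin-associated proteins are membrane proteins through which neurons, and neurons and glia, hold on to each other. The genes described are Nrxn2 and Nrxn3, Nlgn1, Nlgn2 and Nlgn3, and Cntnap2, Cntnap4 and Cntnap5a. They were chosen by symbol, 8 of the 27998 genes in the deposited tables. Their levels were read in single nuclei of the striatum from 7 male C57BL6/J mice, 1 library per mouse. Of these mice 3 were WT, all 14 months old, and 4 carried HttQ175/+. HttQ175 is a disease allele knocked into the mouse huntingtin gene, here in 1 copy beside a normal one, and it carries the expanded CAG repeat of Huntington's disease in every cell rather than in a chosen type. HttQ175/+ replicate 1 was 15 months old and HttQ175/+ replicates 2 to 4 were 14 months old. Dissected striatum was frozen and its nuclei were separated on a density barrier, so RNA of dendrites and axons was largely left behind. The authors' annotation gave each of the 4524 nuclei 1 of 12 type names, with 1314 nuclei from WT and 3210 from HttQ175/+ mice.

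Neurexins sit mostly on the presynaptic side of a synapse, where they link the cleft to the release machinery. Neuroligins sit mostly on the postsynaptic side and bind neurexins: Nlgn1 is known from excitatory synapses, Nlgn2 from inhibitory ones and Nlgn3 from either kind. Contactin-associated proteins resemble neurexins in their outer part but belong with contactins, the adhesion proteins of axons: Cntnap2 holds potassium channels beside the node of Ranvier, Cntnap4 is known from interneurons, and Cntnap5a is a less studied relative. In the striatum these proteins act at synapses that cortex and thalamus make on spiny projection neurons and at the inhibitory contacts between striatal neurons. Spiny neurons of the direct pathway carry the dopamine receptor Drd1 and are named D1.MSN in the annotation. Those of the indirect pathway carry Drd2 and are named D2.MSN.

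On the mm10 build, with the GENCODE vM21 annotation, Nrxn2 lies at chr19:6418731-6544169 on the plus strand and Nrxn3 at chr12:88722876-90334935 on the plus strand. Nlgn1 lies at chr3:25426215-26332460 on the minus strand, Nlgn2 at chr11:69823122-69837784 on the minus strand and Nlgn3 at chrX:101299168-101325963 on the plus strand. Cntnap2 lies at chr6:45059357-47304213, Cntnap4 at chr8:112570043-112882717 and Cntnap5a at chr1:115684756-116587323, all on the plus strand. Spans run from 14.7 kb for Nlgn2 to 2245 kb for Cntnap2. A level here sums all transcripts of a row, because the kit reads the 3' end. For Nrxn3 the annotation places coding transcripts of 430 and 567 codons at an internal start, the short form known as beta neurexin, and they end at 90332899 and 90333443, close to the end of the 1571-codon transcript at 90334935. For Cntnap2 it places transcripts of 108 codons at an internal start, and 1 of them ends at 47304209 beside the end of the 1332-codon transcript at 47304213. The 250 bases before these starts are shown because every Nrxn3 or Cntnap2 value below mixes what starts there with the longer or shorter forms. They are from RefSeq on GRCm38.p6, plus strand, with CG dinucleotides in capitals. The Nrxn3 window is chr12:89812233-89812482, that before the long Cntnap2 transcript is chr6:45059811-45060060, and that before the short ones is chr6:47244146-47244395.
Nrxn3, internal start: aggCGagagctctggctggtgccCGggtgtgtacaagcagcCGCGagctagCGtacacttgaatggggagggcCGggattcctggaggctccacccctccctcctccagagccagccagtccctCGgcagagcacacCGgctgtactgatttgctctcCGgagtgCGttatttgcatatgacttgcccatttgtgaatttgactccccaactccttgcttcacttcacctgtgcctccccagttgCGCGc
Cntnap2, start of the long transcript: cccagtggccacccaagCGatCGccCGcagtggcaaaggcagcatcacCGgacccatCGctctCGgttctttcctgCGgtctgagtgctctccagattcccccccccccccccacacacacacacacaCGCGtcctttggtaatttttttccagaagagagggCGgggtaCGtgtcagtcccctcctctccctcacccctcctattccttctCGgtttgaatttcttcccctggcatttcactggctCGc
Cntnap2, internal start of the short transcripts: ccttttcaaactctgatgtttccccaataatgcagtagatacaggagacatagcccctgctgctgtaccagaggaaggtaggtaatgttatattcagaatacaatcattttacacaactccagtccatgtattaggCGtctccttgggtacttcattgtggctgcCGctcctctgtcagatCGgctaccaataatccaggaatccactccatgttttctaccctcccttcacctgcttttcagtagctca
The motif searched was CG, which reads the same on either strand. The Nrxn3 window held 12 CG, a count that 33.5% of the 32851 windows of this length in the RefSeq table reach. The long Cntnap2 window held 13, reached by 31.5%, and the short one 3, reached by 71.0%, beside a median of 6 over all windows.

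Levels are given per mouse as CPM, the mean over the nuclei of a type of unique molecular identifiers (UMIs, counted RNA molecules) per 1000000 UMIs of the nucleus. A nucleus held 1128 to 5632 UMIs, and the median per mouse was 2498 to 2599 in WT and 1657 to 2385 in HttQ175/+. 3 cell barcodes occurred in more than 1 library. The 5 markers of direct pathway neurons, Drd1, Tac1, Pdyn, Isl1 and Sfxn1, summed to 1164 to 1546 CPM in D1.MSN nuclei of WT mice and to 44.9 to 139 CPM in their D2.MSN nuclei. In HttQ175/+ mice the D1 markers summed to 750 to 954 CPM in D1.MSN. The 5 D2 markers, Drd2, Adora2a, Penk, Gpr6 and Sp9, summed to 1964 to 2669 CPM in D2.MSN of WT mice and to 802 to 906 CPM in those of HttQ175/+ mice, beside 125 to 185 and 86.3 to 130 CPM in D1.MSN. In Unknown.MSN nuclei Tac1, Isl1, Adora2a and Penk were at 0. Nuclei named Microglia carried their own markers at 2817 to 4806 CPM in WT mice, but also 6 spiny neuron markers at 6380 to 6724 CPM, against 9167 to 9640 CPM in D1.MSN. In WT mice those 6 markers summed to 2796 to 3532 CPM in Oligodendrocytes and 1110 to 1890 CPM in Polydendrocytes. They summed to 848 to 1945 CPM in Astrocytes and 244 to 2221 CPM in Endothelial cells. Member levels in Microglia and in these types stand beside that, and the part of spiny neuron RNA in them was not tested. Other markers moved with genotype in spiny nuclei. The 6 spiny neuron markers summed to 9167 to 9640 CPM in WT and 4113 to 4810 CPM in HttQ175/+ D1.MSN, and to 10151 to 10386 and 4709 to 5678 CPM in D2.MSN. The 5 eccentric spiny neuron markers went from 72.8 to 98.4 CPM in WT to 106 to 148 CPM in HttQ175/+ D1.MSN, and from 35.3 to 46.4 to 65.8 to 107 CPM in D2.MSN. Cortical excitatory markers summed to 3.12 to 10.1 CPM in WT and 19.8 to 39.5 CPM in HttQ175/+ D1.MSN. The part of any of these in the genotype differences below was not tested. Each mouse is a replicate; whether tissue was handled in batches is not given in the labels.

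Between genotypes no member passed the threshold in any of the 5 types with enough nuclei to test. Nrxn2 and Cntnap5a had the highest fitted HttQ175/+ to WT ratios among the 7 members tested in D1.MSN and in D2.MSN, and Nrxn3 the lowest, none of them past the threshold. The clearest contrast was between the pathways: Nrxn2 was higher in D2.MSN than in D1.MSN in 7 of 7 mice. Cntnap4 was highest in the interneuron types IN-Pnoc/Pvalb and IN-Sst, and Nrxn2, Nlgn2 and Nlgn3 had their highest WT levels in Polydendrocytes, the progenitors of oligodendrocytes.

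**Figure D1:**
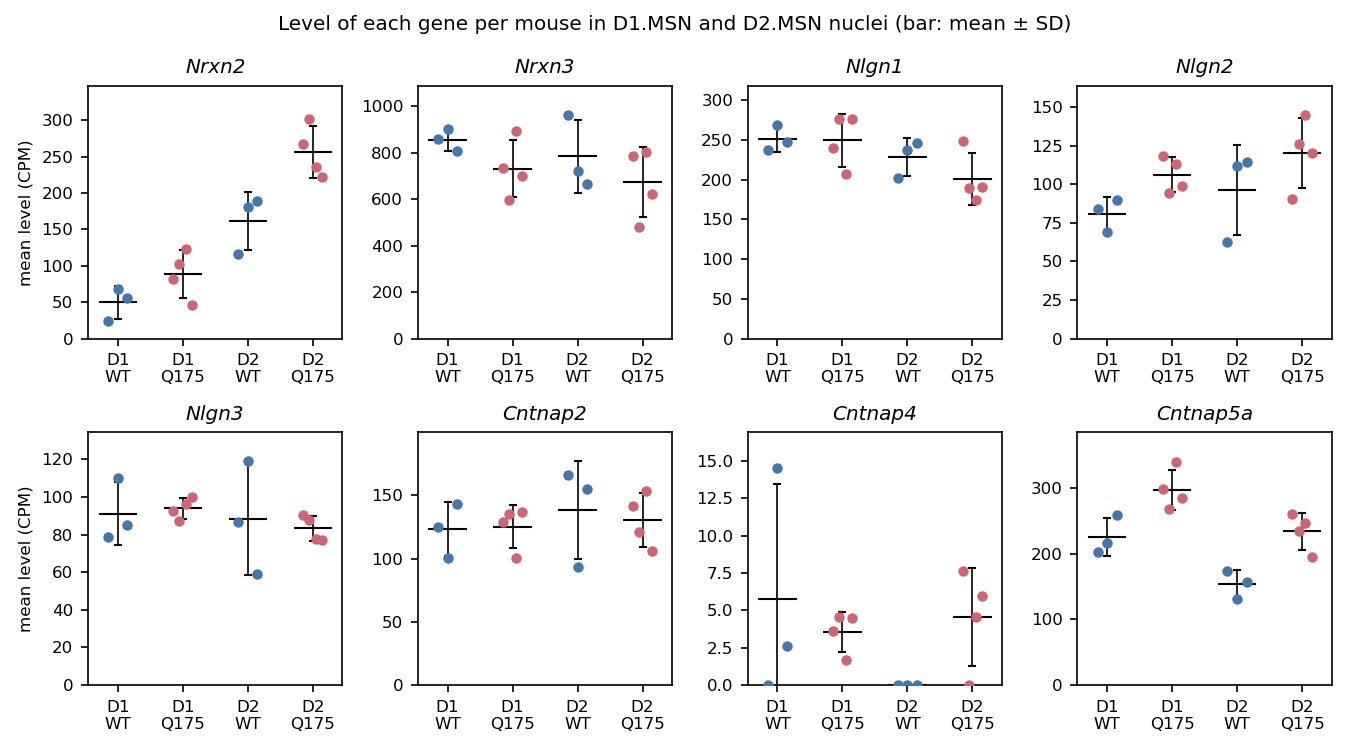
Level of each of the 8 genes in D1.MSN and D2.MSN nuclei, in CPM, with 1 point per mouse and bars for the mean ± SD of 3 WT and 4 HttQ175/+ mice (Q175 on the axis). Nrxn2 is at 24.0 to 124 CPM in D1.MSN and at 116 to 302 CPM in D2.MSN, and every HttQ175/+ point of Cntnap5a lies above every WT point within each type.

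Nrxn2 in D1.MSN was 24.0, 68.7 and 56.3 CPM in WT replicates 1 to 3, from 9, 19 and 34 UMIs. In D2.MSN of the same mice it was 116, 180 and 189 CPM, from 24, 36 and 75 UMIs. In HttQ175/+ replicates 1 to 4 it was 82.2, 102, 124 and 45.6 CPM in D1.MSN and 267, 302, 236 and 222 CPM in D2.MSN. Every mouse was higher in D2.MSN, with a D2 to D1 ratio of 1.91 to 4.86. Only the lowest D2 value, WT replicate 1, came below the highest D1 value, HttQ175/+ replicate 3.

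The difference was fitted within mice with limma on log2(CPM + 8.31), with Benjamini-Hochberg adjustment over 5887 genes. In WT mice Nrxn2 was lower in D1.MSN by -1.60 ± 0.20 (SE, log2), a level 3.03-fold higher in D2.MSN (95% interval 2.29 to 4.03), with a limma adjusted p of 3.43e-06. In HttQ175/+ mice the difference was -1.50 ± 0.17, or 2.83-fold (2.21 to 3.62), with a limma adjusted p of 9.61e-07. Of all genes tested, 1.07% were called between the pathways in WT and 0.629% in HttQ175/+ mice, and of the 7 members tested Nrxn2 was the only 1 called in each. The genotype effect on Nrxn2 in D1.MSN minus that in D2.MSN was 0.10 ± 0.26 (95% interval -0.44 to 0.64, limma adjusted p = 0.967), where 0.017% of genes were called.

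The authors named the types from these same nuclei, by a method that no source at hand states, so these p-values are not independent of the naming. The difference was also fitted with groups set by the 10 markers, in ways chosen after seeing the data. With D1 and D2 groups formed from all spiny nuclei by markers alone, at least 2 UMIs of 1 marker list and none of the other, Nrxn2 was again higher in the D2 group in 7 of 7 mice. WT mice were at 12.8 to 79.0 CPM in the D1 group and 95.8 to 180 CPM in the D2 group, a difference of -1.40 ± 0.25 with a limma adjusted p of 0.00147. HttQ175/+ mice were at 69.5 to 134 CPM in the D1 group and 148 to 222 CPM in the D2 group. Their difference was -0.62 ± 0.22, and its limma adjusted p of 0.285 no longer passed.

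With annotated nuclei whose markers match the name, the difference was -1.62 ± 0.27 in WT (limma adjusted p = 0.000481) and -1.08 ± 0.24 in HttQ175/+ mice (limma adjusted p = 0.0132). This rule kept 333 of 513 WT and 509 of 1296 HttQ175/+ nuclei named D1.MSN. Of nuclei named D2.MSN it kept 245 of 333 in WT and 230 of 608 in HttQ175/+ mice. The part of this unequal selection in the differences was not tested. The marker groups also take in Eccentric MSNs and nuclei whose markers go against their name, and which of these move the difference was not tested. In HttQ175/+ mice they held 37 Eccentric MSNs with D1 markers, at 210 CPM of Nrxn2, and 30 nuclei named D1.MSN with D2 markers, at 101 CPM. In WT mice the same sets held 23 nuclei at 76.2 CPM and 13 at 121 CPM. Higher levels stood in another of these sets. Nuclei named D2.MSN that carried D1 markers and no D2 marker numbered 10 in WT mice, with 13 Nrxn2 UMIs, or 503 CPM (95% exact Poisson interval 268 to 860), and 9 of the 10 held a UMI of Nrxn2. They numbered 19 in HttQ175/+ mice, with 24 UMIs, or 719 CPM (460 to 1069), and 19 of the 19 held a UMI. Nuclei named D1.MSN with the same marker pattern were at 36.0 CPM in WT (24.9 to 50.3) and 80.9 CPM in HttQ175/+ mice (65.4 to 99.0). Nuclei named D2.MSN with D2 markers were at 139 CPM (111 to 171) and 181 CPM (145 to 223). Most Nrxn2 UMIs of HttQ175/+ nuclei named D2.MSN, 182 of 295, were in 359 nuclei that met neither marker rule, at 273 CPM (234 to 315). In WT mice 78 nuclei named D2.MSN met neither rule, with 34 UMIs, or 168 CPM (116 to 235). The values of these sets pool nuclei over the mice of a genotype, and the part of each mouse was not taken apart. Their intervals cover counting error only.

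**Figure D2:**
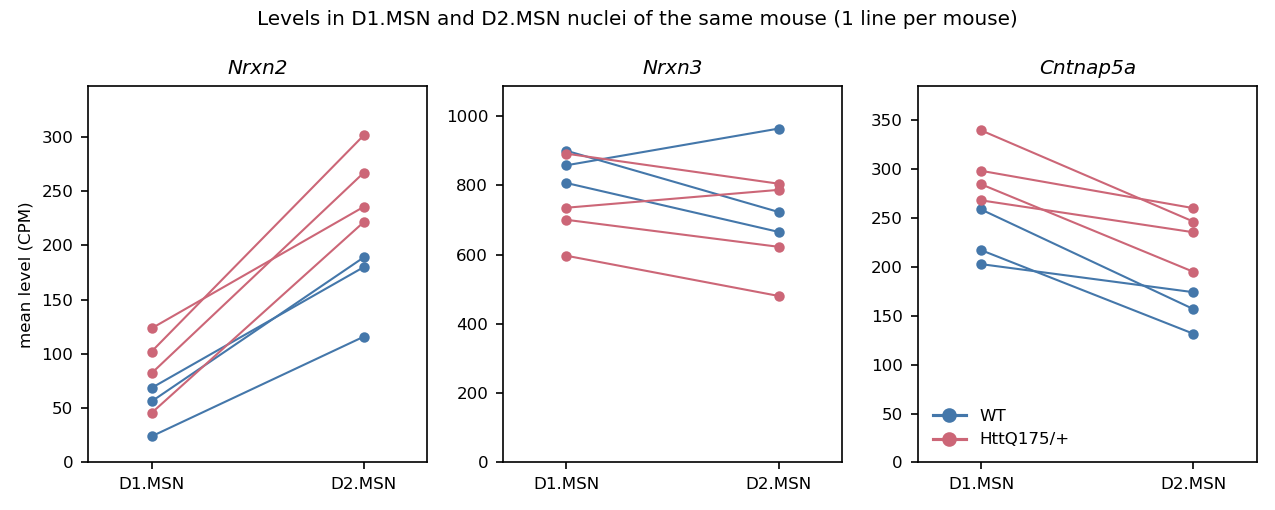
Levels of Nrxn2, Nrxn3 and Cntnap5a in CPM, with a line joining D1.MSN and D2.MSN of the same mouse (3 WT and 4 HttQ175/+ mice). All 7 Nrxn2 lines go up towards D2.MSN, all 7 Cntnap5a lines go down, and the Nrxn3 lines go down in 5 mice and up in 2.

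By genotype, Nrxn2 was 49.7 ± 23.0 CPM (SD, n = 3) in WT and 88.4 ± 33.2 CPM (n = 4) in HttQ175/+ D1.MSN, with overlapping mice. The fitted change was 0.71 ± 0.34 on log2(CPM + 3.67), 1.63-fold with a 95% interval of 0.986 to 2.70 and a limma adjusted p of 0.298. In D2.MSN it was 162 ± 39.9 CPM (n = 3) in WT and 256 ± 35.6 CPM (n = 4) in HttQ175/+ mice, and all HttQ175/+ mice lay above all WT mice. That change was 0.55 ± 0.22, 1.47-fold (1.06 to 2.02), with a raw p of 0.0229 and an adjusted p of 0.237 by limma. In nuclei with matching markers, a choice made after seeing the data, it was 0.24 ± 0.27. Of all genes tested in D2.MSN, 9.16% had every HttQ175/+ mouse above every WT mouse. These CPM are before TMM scaling, and the median change over those genes was 0.10 without that scaling and 0.00 with it.

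Outside spiny neurons Nrxn2 was highest in Polydendrocytes, at 1051, 1113 and 820 CPM in WT mice, from 16, 13 and 15 UMIs. That range stood apart from the next type, IN-Pnoc/Pvalb, at 142 to 745 CPM in WT mice. From there down to Endothelial cells and D1.MSN the WT ranges of neighbours in the order overlapped. In HttQ175/+ mice Polydendrocytes held 407, 525, 652 and 388 CPM, from 7 to 14 UMIs, all below the WT mice. With 8 to 17 nuclei per mouse this type was not fitted, and an exact permutation test of 3 against 4 mice cannot go below p = 0.0571. Of 2628 genes with at least 15 UMIs there, 3.58% had all HttQ175/+ mice below all WT mice. The 4 progenitor markers summed to 4632 to 5431 CPM in WT and 2752 to 4551 CPM in HttQ175/+ Polydendrocytes, and 3 neuronal markers to 168 to 524 and 390 to 1082 CPM; their part in the difference was not tested.

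Nrxn3 was read in nuclei of spiny neurons and interneurons, and in nuclei named as glia beside the spiny neuron markers given for them. In D1.MSN it was 858, 900 and 807 CPM in WT replicates 1 to 3 and 736, 597, 892 and 701 CPM in HttQ175/+ replicates 1 to 4. Their D2.MSN held 964, 723 and 666 CPM in WT and 787, 481, 805 and 623 CPM in HttQ175/+ mice. HttQ175/+ replicate 2, whose nuclei held the fewest UMIs (median 1657), was lowest in both types, and the groups overlapped. The fitted change was -0.36 ± 0.14 in D1.MSN (0.781-fold, 0.633 to 0.964, limma adjusted p = 0.202). For D2.MSN it was -0.34 ± 0.19 (0.791-fold, 95% interval of log2 -0.75 to 0.07, limma adjusted p = 0.452). The difference of these effects was -0.02 ± 0.14 (95% interval -0.31 to 0.27). Between the pathways the D2 to D1 ratio was 0.804 to 1.12 over the mice, and the difference in WT, 0.16 ± 0.11, did not pass (limma adjusted p = 0.595).

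The highest Nrxn3 means in WT mice were in IN-Pnoc/Pvalb (1094 to 1171 CPM), IN-Sst (766 to 1252 CPM) and Eccentric MSNs (862 to 1392 CPM), and the ranges of neighbours overlapped from there through D1.MSN and D2.MSN. The WT range of IN-Pnoc/Pvalb itself lay above those of D1.MSN (807 to 900 CPM) and D2.MSN (666 to 964 CPM). Microglia held 486 to 745 CPM in the 2 WT mice with enough nuclei, a range that overlaps D2.MSN, beside the spiny neuron markers given for them. Polydendrocytes held 95.7 to 424 CPM, Oligodendrocytes 264 to 389 CPM and Astrocytes 92.3 to 182 CPM, and Endothelial cells were at 0 in 2 of 3 WT mice. In IN-Pnoc/Pvalb all 4 HttQ175/+ mice, at 680 to 862 CPM, lay below all WT mice. There 2.46% of 5293 genes with at least 15 UMIs did so, the type had too few nuclei for the fit, and p cannot go below 0.0571 in an exact permutation test.

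**Figure D3:**
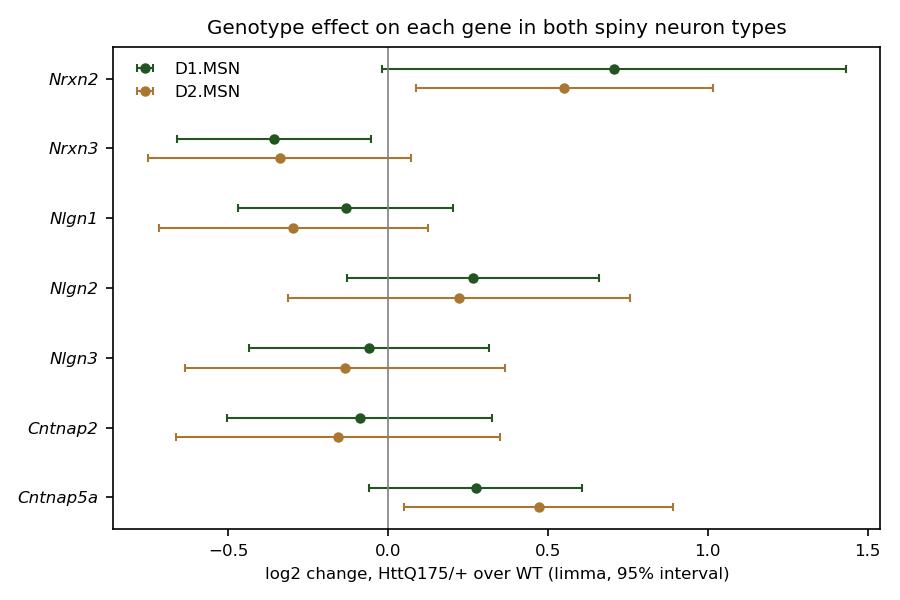
Fitted log2 change of HttQ175/+ over WT for the 7 members tested in D1.MSN and D2.MSN, with 95% intervals from limma over 7 mice. The points run from -0.36 for Nrxn3 to 0.71 for Nrxn2 in D1.MSN, and the 2 intervals of each gene overlap.

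Among the neuroligins, Nlgn1 was 237, 269 and 247 CPM in D1.MSN of WT replicates 1 to 3 and 240, 277, 207 and 276 CPM in HttQ175/+ replicates 1 to 4. In D2.MSN the values were 202, 238 and 246 CPM in WT and 249, 189, 174 and 191 CPM in HttQ175/+ mice. The HttQ175/+ mice spanned the WT range in D1.MSN, and 3 of 4 lay below it in D2.MSN. The changes were -0.13 ± 0.16 in D1.MSN and -0.30 ± 0.20 in D2.MSN, with 95% intervals of -0.47 to 0.20 and -0.72 to 0.13 and limma adjusted p of 0.730 and 0.548. It was higher in D1.MSN in 6 of 7 mice, by 0.16 ± 0.15 in WT and 0.32 ± 0.13 in HttQ175/+ mice, neither past the threshold (limma adjusted p = 0.749 and 0.556).

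Among WT types Nlgn1 was at 77.9 to 574 CPM in Microglia, 237 to 269 CPM in D1.MSN, 206 to 276 CPM in Polydendrocytes and 202 to 246 CPM in D2.MSN, 4 ranges that overlap. IN-Sst, at 58.0 to 186 CPM, stood apart below D2.MSN. In IN-Pnoc/Pvalb, WT mice held 0 to 39.8 CPM, from 2 UMIs in 1 of 3 mice. The 4 HttQ175/+ mice held 27.9 to 81.9 CPM from 14 UMIs, a range that overlaps WT.

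Nlgn2 in D1.MSN was 83.8, 68.8 and 90.0 CPM in WT and 118, 94.5, 113 and 98.9 CPM in HttQ175/+ mice, so the groups did not overlap, as for 12.6% of genes tested there. D2.MSN of WT mice held 62.4, 112 and 114 CPM and that of HttQ175/+ mice 90.6, 126, 145 and 120 CPM, and these groups did. Printed CPM are before TMM scaling, and over all genes tested in D1.MSN the median change was 0.14 without it and 0.03 with it. The fitted changes were 0.27 ± 0.18 in D1.MSN (1.20-fold, 0.914 to 1.58) and 0.22 ± 0.25 in D2.MSN (1.17-fold, 0.806 to 1.69). Their limma adjusted p were 0.503 and 0.758. It did not differ past the threshold between the pathways: -0.17 ± 0.21 in WT and -0.14 ± 0.18 in HttQ175/+ mice.

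Nlgn3 was 78.5, 110 and 85.0 CPM in D1.MSN of WT mice and 92.4, 87.0, 96.5 and 100.1 CPM in HttQ175/+ mice. D2.MSN held 86.5, 119 and 59.3 CPM in WT and 90.4, 87.9, 77.7 and 77.1 CPM in HttQ175/+ mice. The HttQ175/+ mice lay inside the WT range in each type. The changes were -0.06 ± 0.18 and -0.13 ± 0.24, with 95% intervals of -0.44 to 0.32 and -0.63 to 0.37, and the first was 0.055 without TMM scaling.

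In Oligodendrocytes both genes were low and non-overlapping. Nlgn2 was 15.0 to 44.9 CPM in WT, from 12 UMIs in all, and 50.4 to 87.9 CPM in HttQ175/+ mice, from 59 UMIs. Nlgn3 was 9.92 to 32.5 CPM in WT, from 10 UMIs, and 44.0 to 71.9 CPM in HttQ175/+ mice, from 51 UMIs. They had too few UMIs for the fit, and 6.99% of 9939 genes with at least 15 UMIs lay above all WT mice in this way. Oligodendrocyte markers summed to 23301 to 26184 CPM there in WT and 9225 to 20085 CPM in HttQ175/+ mice, and neuronal markers to 673 to 908 and 630 to 1253 CPM; the part of either was not tested.

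Polydendrocytes were the highest WT type for Nlgn2, at 313 to 338 CPM, and for Nlgn3, at 293 to 741 CPM, each apart from the next type. These rest on 13 and 23 UMIs in 28 nuclei. In HttQ175/+ mice they were 0 to 319 CPM for Nlgn2 and 24.4 to 428 CPM for Nlgn3, overlapping WT for each. Nlgn3 in Astrocytes was 107.7 to 173 CPM in WT, from 21 UMIs, and 88.2 to 107.4 CPM in HttQ175/+ mice, from 37 UMIs. All HttQ175/+ mice thus lay narrowly below all WT mice, where 2.75% of 8327 genes with at least 15 UMIs lay below. In the same Astrocytes 3 neuronal markers summed to 237 to 324 CPM in WT and 448 to 1069 CPM in HttQ175/+ mice, and oligodendrocyte markers to 537 to 1021 and 1046 to 2076 CPM. Microglia markers there went from 29.2 to 71.0 CPM in WT to 86.1 to 380 CPM in HttQ175/+ mice, and the part of these RNAs in member levels was not tested.

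**Figure D4:**
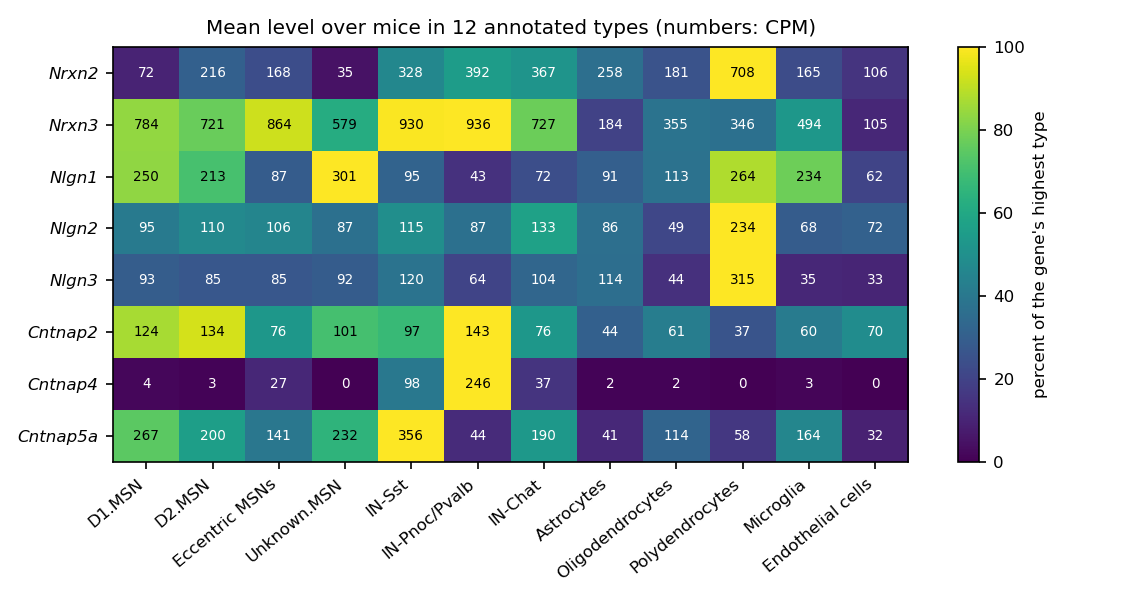
Mean level of each gene in the 12 annotated types over mice of both genotypes with at least 5 nuclei of the type (IN-Chat rests on HttQ175/+ mice alone, Unknown.MSN on those and 1 WT mouse), with the CPM printed in each cell and colour as a percent of that gene's highest type. Cntnap4 stands out in IN-Pnoc/Pvalb and IN-Sst, and Nrxn2 in Polydendrocytes, where its mean over WT mice was 995 CPM and that over HttQ175/+ mice 493 CPM.

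Among the contactin-associated genes, Cntnap2 was 125, 101 and 144 CPM in D1.MSN of WT mice and 129, 135, 100.3 and 137 CPM in HttQ175/+ mice. D2.MSN held 166, 93.8 and 155 CPM in WT and 142, 121, 154 and 106 CPM in HttQ175/+ mice. No group or pathway stood apart. The genotype changes were -0.09 ± 0.19 in D1.MSN and -0.16 ± 0.24 in D2.MSN, with 95% intervals of -0.50 to 0.33 and -0.66 to 0.35, and the first was 0.028 without TMM scaling. WT ranges of D2.MSN, IN-Pnoc/Pvalb, D1.MSN, Eccentric MSNs, Endothelial cells, IN-Sst and Oligodendrocytes overlapped from each to the next, and Polydendrocytes held 1 UMI in 28 WT nuclei.

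Cntnap4 was highest in a pair of interneuron types. In IN-Pnoc/Pvalb it was 324, 294 and 226 CPM in WT mice, from 14, 15 and 6 UMIs, and 293, 238, 134 and 209 CPM in HttQ175/+ mice, from 17, 11, 2 and 11 UMIs. In IN-Sst it was 188, 90.5 and 64.2 CPM in WT and 55.3, 114, 67.4 and 106 CPM in HttQ175/+ mice. The WT ranges of the 2 types stood apart, and the genotypes overlapped within each. In IN-Chat, the cholinergic interneurons, HttQ175/+ mice held 0 to 79.2 CPM from 8 UMIs with a mean of 37.0 CPM, and no WT mouse had 5 such nuclei.

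In spiny neurons Cntnap4 was close to absent. D1.MSN held 6 UMIs in 513 WT nuclei and 10 in 1296 HttQ175/+ nuclei. D2.MSN held none in 333 WT nuclei, which allows up to 3.48 CPM at 3 counts, and 4 UMIs in 608 HttQ175/+ nuclei. Eccentric MSNs, at 0 to 76.4 CPM over the mice from 9 UMIs with a mean of 27.4 CPM, were the only spiny type above 20 CPM on average. Polydendrocytes, Endothelial cells and Unknown.MSN held no UMI. Cntnap4 did not pass the filter on low genes in any type that was fitted, and IN-Pnoc/Pvalb had too few nuclei for the fit.

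**Figure D5:**
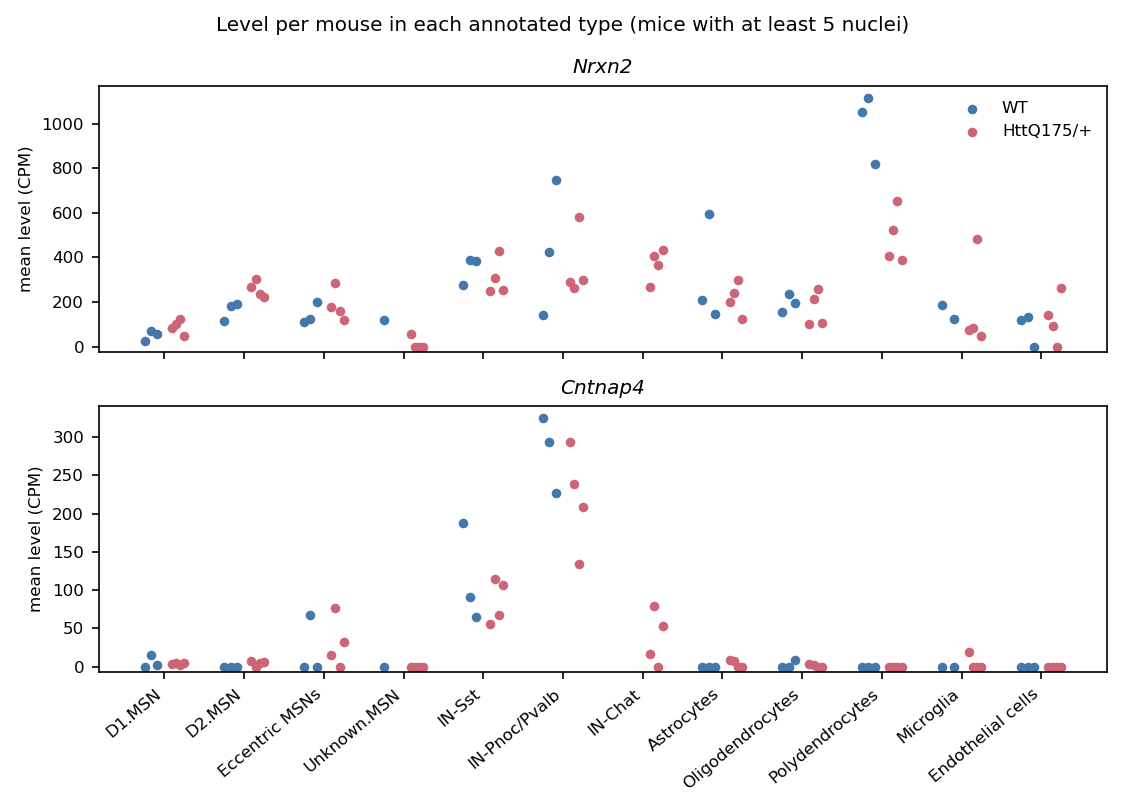
Nrxn2 and Cntnap4 per mouse in each annotated type, in CPM, for mice with at least 5 nuclei of the type. Nrxn2 in Polydendrocytes is at 820 to 1113 CPM in WT and 388 to 652 CPM in HttQ175/+ mice, and Cntnap4 reaches 324 CPM in IN-Pnoc/Pvalb while D1.MSN and D2.MSN stay below 15 CPM.

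Cntnap5a was the member whose genotypes separated in both D1.MSN and D2.MSN as annotated. In D1.MSN it was 203, 217 and 259 CPM in WT replicates 1 to 3, from 77 to 153 UMIs, and 298, 268, 340 and 285 CPM in HttQ175/+ replicates 1 to 4, from 155 to 268 UMIs. In D2.MSN it was 174, 132 and 157 CPM in WT and 260, 236, 246 and 195 CPM in HttQ175/+ mice. All HttQ175/+ mice lay above all WT mice in each type, as for 12.6% of genes tested in D1.MSN and 9.16% in D2.MSN. These CPM are before TMM scaling. Without that scaling the median change over all genes was 0.14 in D1.MSN and 0.10 in D2.MSN, beside 0.03 and 0.00 with it. The fitted change was 0.27 ± 0.16 in D1.MSN, 1.21-fold (0.960 to 1.52), with a limma adjusted p of 0.390. In D2.MSN it was 0.47 ± 0.20, 1.39-fold (1.04 to 1.85), with a raw p of 0.0303 and an adjusted p of 0.267 by limma. The change in D1.MSN minus that in D2.MSN was -0.20 ± 0.20 (95% interval -0.60 to 0.20). Marker groups were chosen after seeing the data. With matching markers, D1 nuclei overlapped, at 183 to 299 CPM in WT and 279 to 318 CPM in HttQ175/+ mice. D2 nuclei did not, at 92.3 to 175 and 185 to 274 CPM. By markers alone WT and HttQ175/+ mice overlapped in the D1 group (181 to 288 and 257 to 302 CPM) and in the D2 group (92.4 to 180 and 173 to 270 CPM).

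Cntnap5a was higher in D1.MSN than in D2.MSN in 7 of 7 mice, with a D1 to D2 ratio of 1.14 to 1.65. The difference was 0.55 ± 0.15 in WT, 1.47-fold (1.19 to 1.81), and its limma adjusted p of 0.0603 did not pass. In HttQ175/+ mice it was 0.35 ± 0.13, 1.28-fold (1.06 to 1.53), with a limma adjusted p of 0.430. Among nuclei with at least 1500 UMIs the WT difference was 0.62 with a limma adjusted p of 0.0348. In groups formed by markers alone Cntnap5a was again higher in the D1 group in 7 of 7 mice. The difference there was 0.72 ± 0.21 in WT and 0.39 ± 0.18 in HttQ175/+ mice, neither past the threshold (limma adjusted p = 0.156 and 0.557).

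Outside spiny neurons Cntnap5a had its highest WT mean in IN-Sst, at 204, 517 and 93.8 CPM, a range that spans D1.MSN. HttQ175/+ mice held 417, 291, 588 and 382 CPM there, overlapping WT replicate 2. That change was 0.88 ± 0.40 (1.84-fold, 1.03 to 3.28, limma adjusted p = 0.649), and it was 1.49 without WT replicate 2 and 0.38 without WT replicate 3. In Oligodendrocytes it was 43.9 to 116 CPM in WT and 82.6 to 193 CPM in HttQ175/+ mice, a change of 0.59 ± 0.35 (limma adjusted p = 0.482). The 6 spiny neuron markers summed to 2796 to 3532 CPM there in WT and 1661 to 2851 CPM in HttQ175/+ mice. Their part was not tested. Astrocytes held 20.6 to 35.1 CPM in WT and 32.1 to 89.7 CPM in HttQ175/+ mice, beside the neuronal markers of 237 to 324 and 448 to 1069 CPM there, whose part was not tested.

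In all, 7 members were tested in D1.MSN, 7 in D2.MSN, 6 in IN-Sst, 4 in Oligodendrocytes and 2 in Astrocytes, the others failing the filter on low genes. None was called by limma, with 1, 2, 1, 0 and 0 at a raw p under 0.05, and limma-voom on summed UMIs called none either. Over all genes 3.94% were called in D1.MSN, 2.21% in D2.MSN, 0.439% in Oligodendrocytes and 0% in IN-Sst and Astrocytes, so a count of 0 in 7 is near the background. In IN-Sst and Astrocytes 170 of 2233 and 260 of 1858 genes had a raw p under 0.05, and limma-voom called 0 and 6. In D1.MSN and D2.MSN 1557 of 8790 and 890 of 5894 genes had a raw limma p under 0.05. The median change over members was -0.06 in D1.MSN and -0.13 in D2.MSN, beside 0.03 and 0.00 over all genes tested. In IN-Sst, besides Cntnap5a, the member changes ran from -0.36 ± 0.26 for Nrxn3 to 0.37 ± 0.31 for Nlgn3. In Astrocytes Nrxn2 was -0.36 ± 0.39 and Nrxn3 0.42 ± 0.41. In Oligodendrocytes Nrxn2 was -0.29 ± 0.34, Nrxn3 0.03 ± 0.30 and Nlgn1 0.24 ± 0.35.

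The share of nuclei with a UMI was compared after thinning each nucleus to 1000 UMIs, since HttQ175/+ D1.MSN nuclei had median depths of 1647 to 2636 UMIs per mouse against 2716 to 2816 in WT. Cntnap5a was found in 18.9 ± 1.99% (SD, n = 3) of WT and 25.3 ± 2.18% (n = 4) of HttQ175/+ D1.MSN nuclei. In D2.MSN the shares were 13.4 ± 1.66% and 20.5 ± 1.86%. Nrxn2 in D2.MSN was found in 14.3 ± 4.74% of WT and 22.0 ± 3.86% of HttQ175/+ nuclei, and Nlgn2 in D1.MSN in 7.55 ± 0.988% and 10.0 ± 1.02%. For these 4 of the 16 comparisons the two-sided exact permutation test gave p = 0.0571, the smallest it can give, or 0.229 after Benjamini-Hochberg adjustment over 16. The CPM of these 4 did not overlap either, where 12.6% of genes tested in D1.MSN and 9.16% in D2.MSN had all HttQ175/+ mice above. For shares of nuclei no such portion over all genes was taken. After thinning to 1500 UMIs the exact permutation test gave 0.0571 for Cntnap5a in each type, 0.343 for Nrxn2 in D2.MSN and 0.114 for Nlgn2 in D1.MSN. Without thinning, none of the 16 reached 0.0571 in the exact permutation test, and Nrxn2 in D2.MSN stood at 29.1 ± 13.5% in WT and 35.7 ± 7.93% in HttQ175/+ nuclei. No type here is known to lack these genes altogether: without thinning Cntnap5a was found in 17.4% of 121 WT and 25.6% of 347 HttQ175/+ Oligodendrocytes nuclei, against 40.0% and 44.3% of D1.MSN nuclei, all pooled over mice, at a median of 2159 UMIs beside 2175 in D1.MSN and 2036 in D2.MSN.

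The partners of these proteins were followed through lists of genes. Each list's median stands beside 0.03 in D1.MSN and 0.00 in D2.MSN over all genes, and its count beside the 3.94% and 2.21% of all genes called there. Counts at a raw limma p under 0.05 stand beside 1557 of 8790 genes in D1.MSN and 890 of 5894 in D2.MSN. Of the other contactin-associated genes, Cntnap1, Cntnap3, Cntnap5b and Cntnap5c, 2 could be tested in D1.MSN and 1 was called. Cntnap3 was 40.2 ± 14.0 CPM (SD, n = 3) in WT and 13.2 ± 4.39 CPM (n = 4) in HttQ175/+ D1.MSN, with no overlap, and fell by 1.46 ± 0.31 on the log2 scale (limma adjusted p = 0.0169). Only 4 fits that leave out a mouse held it, as it failed the filter on low genes in the others. It lost its call in 1 of the 4, without HttQ175/+ replicate 4 (limma adjusted p = 0.0511). In D2.MSN it had too few UMIs for the fit, and Cntnap1, the only 1 of the 4 tested there, was not called (-0.60 ± 0.20, limma adjusted p = 0.164). Cntnap1 was at -0.02 ± 0.21 in D1.MSN.

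Of 20 contactins and partners of contactin-associated proteins, all 20 were tested in D1.MSN and 3 fell, with a median of -0.03. A raw limma p under 0.05 was reached by 7 of 20 there and by 4 of 19 in D2.MSN. Nfasc, neurofascin of the axon initial segment and node, was 125 to 151 CPM in WT and 47.1 to 66.7 CPM in HttQ175/+ mice and fell by 1.28 ± 0.19 (limma adjusted p = 0.00169). The gene is also active in oligodendrocytes, whose markers summed to 31.0 to 152 CPM in WT and 54.5 to 154 CPM in HttQ175/+ D1.MSN. Cntn5, contactin 5, was 349 to 385 CPM in WT and 172 to 238 CPM in HttQ175/+ mice and fell by 0.96 ± 0.16 (limma adjusted p = 0.00454). Cntn3 went from 60.3 to 72.7 CPM in WT to 32.1 to 46.5 CPM in HttQ175/+ mice (-0.86 ± 0.20, limma adjusted p = 0.0290), a call lost in 5 of the 7 fits that leave out a mouse. In D2.MSN 1 of 19 fell: Cntn5, from 324 to 420 CPM to 206 to 243 CPM (-0.82 ± 0.18, limma adjusted p = 0.0205), lost in 4 of those 7 fits. Nfasc and Cntn5 in D1.MSN passed in 7 of 7.

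Of 21 extracellular partners of neurexins and neuroligins, 11 were tested in D1.MSN and 1 was called, with a median of -0.04. Lrrtm3, a postsynaptic protein that binds neurexins, was 331 to 377 CPM in WT and 227 to 283 CPM in HttQ175/+ mice (-0.57 ± 0.15, limma adjusted p = 0.0480), and 6 of the 7 fits that leave out a mouse lost it, as did limma-voom. In D2.MSN limma called none of 10, with 1 at a raw p under 0.05, and limma-voom none. Of 22 intracellular partners and scaffolds, such as Dlg4 and Gphn of excitatory and inhibitory postsynapses, limma called none of 22 in D1.MSN and none of 18 in D2.MSN, with 7 and 2 at a raw p under 0.05, and limma-voom called none. Their medians were -0.07 and 0.04.

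Of 38 other synaptic adhesion organisers, 1 of 33 rose in D1.MSN and 1 of 30 fell in D2.MSN. A raw limma p under 0.05 was reached by 10 of 33 in D1.MSN and 11 of 30 in D2.MSN. Il1rap, an interleukin receptor subunit whose neuronal form binds the presynaptic phosphatase Ptprd, was 7.83 to 26.9 CPM in WT and 34.9 to 54.4 CPM in HttQ175/+ D1.MSN (1.25 ± 0.31, limma adjusted p = 0.0392). Cadm2, a synaptic cell adhesion molecule, was 355 to 519 CPM in WT and 248 to 299 CPM in HttQ175/+ D2.MSN (-0.76 ± 0.18, limma adjusted p = 0.0396). Each was lost in 6 of the 7 fits that leave out a mouse. Between the pathways, where 1.07% of all genes were called in WT and 0.629% in HttQ175/+ mice, Opcml, an adhesion protein of the IgLON group, was lower in D1.MSN by -0.74 ± 0.11 in HttQ175/+ mice (limma adjusted p = 6.25e-05) and -0.48 ± 0.12 in WT (0.0495), and Cadm1 was higher in D1.MSN in WT by 0.80 ± 0.18 (0.0190). The last 2 calls were lost in 6 and 3 of the 7 fits that leave out a mouse, whereas Opcml in HttQ175/+ mice passed in all 7. Of these partner genes, Nfasc and Cntn5 in D1.MSN and Opcml in HttQ175/+ mice passed under every setting tried. Lrrtm3, Cntn3, Il1rap, Cadm2, Cadm1 and Opcml in WT were not called in nuclei with matching markers, a setting chosen after seeing the data, with limma adjusted p of 0.118 to 0.381. That setting holds fewer nuclei, and the fitted values there were -0.51 for Lrrtm3, -0.53 for Cntn3, 1.16 for Il1rap, -0.66 for Cadm2, 1.00 for Cadm1 and -0.58 for Opcml. Cntn5 in D2.MSN missed only without TMM scaling (0.0582) and with mice left out, and Cntnap3 had too few UMIs to be fitted in the nuclei with matching markers.

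Across the 12 types, the gene closest to each member in log2(CPM + 20) is given as a description, since the 12 points share libraries and depth. It was sought among 12725 genes, less those named Gm with a number or ending in Rik and 1 family gene not reported here. Nlgn2 and Nlgn3 followed each other (Pearson r = 0.90), the only member pair among each other's closest 3. Polydendrocytes were far above the other types for both. Their means there were 234 and 315 CPM, beside 49.4 to 133 and 32.6 to 120 CPM elsewhere, and r without that type was not taken. Nrxn2 was nearest to Fnta (r = 0.89) and Nrxn3 to Tro (0.98). Nlgn1 was nearest to Syndig1 (0.95), a gene of excitatory synapse development, Nlgn2 to Gpr89 (0.92) and Nlgn3 to Flrt1 (0.95), an adhesion protein. Cntnap2 was nearest to Ralgapa1 (0.92), Cntnap4 to Coro6 (0.97) and Cntnap5a to Syt7 (0.91), a calcium sensor of vesicle release. Nrxn2 and Nrxn3 were nearly unrelated in this measure (0.08).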

How the data were processed

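Libraries were droplet-based and read the 3' end (per the labels). Per the submitters' processing notes the tools were Cell Ranger 3.0.2 and Seurat, on mm10. No source at hand states how nuclei were filtered, how doublets were handled, how types were named or whether strand was used. The values the authors deposited are on a natural log scale, ln(1 + UMIs per 10000 UMIs of the nucleus), beside a table with the type of each nucleus and other columns. Whole UMIs could be recovered for 100% of values above 0, within 0.02. For each mouse and type, linear values were averaged to CPM, scaled by TMM and taken to log2 with a pseudocount of 2 UMIs of the median mouse, which makes changes of low genes smaller. That was 3.67 CPM in D1.MSN, 8.31 in D2.MSN, 22.5 in IN-Sst, 15.1 in Oligodendrocytes and 22.7 in Astrocytes. Printed CPM are before TMM. limma 3.58.1 (R 4.3.3, trend) tested types with at least 10 nuclei in 3 mice of each genotype, and genes that held 15 UMIs or more over the mice and, scaled to the median total, 10 or more in 3 mice. A call is a Benjamini-Hochberg adjusted p under 0.05 over all genes of a comparison. The fit was tested on simulated data, and scipy 1.17.1 gave exact tests. Named are all members, called genes of the partner lists and the genes nearest to each member. The members and lists were chosen with earlier results of these data known. 1 other gene of the families is not reported here.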

Additional observations from a re-analysis of the deposited data

Results flagged for a closer look

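Among the 93 groups of 4 mice examined, 1 mouse stood far from the other 3 in 6, and chance gives about 1 group in 20. WT has 3 mice and was not examined in this way, so all are HttQ175/+ mice, and each value rests on 6 UMIs or fewer. Nrxn2 was 54.8 CPM in Unknown.MSN of replicate 1, from 1 UMI, 580 CPM in IN-Pnoc/Pvalb of replicate 3, from 6 UMIs, and 482 CPM in Microglia of replicate 3, from 4 UMIs. Nrxn3 was 0 CPM in Endothelial cells of replicate 4. Nlgn1 was 27.9 CPM in IN-Pnoc/Pvalb of replicate 4, from 2 UMIs, and Cntnap4 was 19.2 CPM in Microglia of replicate 1, from 1 UMI.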

How the results depend on the processing

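No paired analysis was possible because no label pairs a WT mouse with an HttQ175/+ mouse. The Nrxn2 difference between the pathways kept its direction and call under all 16 other settings listed at the outset, from -1.79 to -1.25 in WT and from -1.71 to -1.20 in HttQ175/+ mice. It lost its call only in HttQ175/+ mice with groups formed by markers alone, a choice made after seeing the data. Cntnap5a in WT passed only among nuclei with at least 1500 UMIs. Of 817 alternatives for members 767 kept direction and side of the threshold and 48 changed sign, all of these for values that were not called, and the cause was not tested. Depth limits the types other than D1.MSN and D2.MSN: most members rest there on fewer than 20 UMIs per mouse.

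Counts of called genes moved as follows. With groups formed by markers alone and with matching markers, which hold fewer nuclei, D1.MSN had 165 and 175 called genes, D2.MSN 67 and 54, the pathway difference 19 and 16 in WT and 21 and 22 in HttQ175/+ mice, and the difference of genotype effects 0 and 0. The last was 2 with a pseudocount of 8 UMIs, 2 with at least 1500 UMIs, 0 with no filter on low genes and 0 without the 5% of nuclei with most UMIs. Astrocytes had 1 with the pseudocount of 8 UMIs and 6 with limma-voom, and IN-Sst 2 with no filter. Oligodendrocytes had 35 with the pseudocount of 8 UMIs, 25 with median of ratios scaling, 2 with no filter and 4 with at least 1500 UMIs. Leaving out a mouse at a time gave 181 to 314 genes in D1.MSN, 53 to 139 in D2.MSN, 1 to 110 in Oligodendrocytes, 0 to 8 in Astrocytes and 0 to 1 in IN-Sst. It gave 43 to 80 for the pathway difference in WT, 17 to 45 in HttQ175/+ mice and 0 to 4 for the difference of genotype effects.

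Signs changed in these uncalled values. With groups formed by markers alone and with matching markers, the D1 minus D2 difference in HttQ175/+ mice was -0.30 and -0.12 for Nlgn3 and 0.10 and 0.30 for Cntnap2, and that of Nlgn2 in WT was 0.064 with the first. The genotype effect in D1.MSN minus that in D2.MSN was 0.086 and 0.12 for Nrxn3, -0.28 and -0.056 for Nlgn2 and -0.31 and -0.19 for Nlgn3. The genotype effect on Nlgn3 in D2.MSN was 0.25 and 0.16, and that on Nlgn1 in D1.MSN was 0.0028 with matching markers. With limma-voom the D1 minus D2 difference of Nlgn3 in WT was -0.027, the difference of genotype effects for Cntnap2 was -0.054, and the genotype effect was 0.051 for Nlgn3 in D1.MSN and -0.13 for Nrxn3 in Oligodendrocytes. Without scaling beyond CPM the genotype effect in D1.MSN was 0.055 for Nlgn3 and 0.028 for Cntnap2. The difference of genotype effects was -0.014 for Nrxn2 with a pseudocount of 8 UMIs and 0.0039 for Nrxn3 without the 5% of nuclei with most UMIs. In Oligodendrocytes the genotype effect with at least 1500 UMIs was 0.048 for Nrxn2 and -0.15 for Nrxn3, and -0.048 for Nrxn3 with median of ratios scaling. Without thinning, the share of D1.MSN nuclei with a UMI differed by -4.50, -1.70 and -0.107 percentage points for Nlgn1, Nlgn3 and Cntnap2.

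Leaving out a mouse at a time, the D1 minus D2 difference ran from -0.17 to 0.14 for Cntnap2 in HttQ175/+ mice, from -0.49 to 0.057 for Nlgn2 in WT and from -0.089 to 0.20 for Nlgn3 in WT. The difference of genotype effects ran from -0.092 to 0.30 for Nrxn2, from -0.14 to 0.068 for Nrxn3, from -0.20 to 0.35 for Nlgn2, from -0.019 to 0.27 for Nlgn3 and from -0.063 to 0.26 for Cntnap2. The genotype effect ran from -0.14 to 0.050 for Nlgn3 and from -0.25 to 0.043 for Cntnap2 in D1.MSN, and from -0.050 to 0.39 for Nlgn2 and from -0.34 to 0.075 for Nlgn3 in D2.MSN. It ran from -0.72 to 0.14 for Nrxn2 in Astrocytes, and from -0.17 to 0.18 for Nrxn3 and from -0.20 to 0.52 for Nlgn1 in Oligodendrocytes.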
